A study of Mus musculus with 2 samples.

Results

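CD8 T cells that carried 2 or more unique molecular identifiers (UMIs, each standing for 1 captured RNA molecule) of Mki67 and Top2a together were described in subcutaneous mouse tumors. A barcode was kept at 200 or more detected genes, 500 or more UMIs and at most 10% mitochondrial UMIs, unless both libraries held the same barcode. It was taken as a CD8 T cell when Cd3d, Cd3e, Cd3g and Trac summed to 2 or more UMIs, Cd8a and Cd8b1 to 1 or more, and Cd4 and Csf1r to 0. Of 4403 kept cells, 63 passed every step, 42 from WT tumors and 21 from TSK tumors. Because Mki67 and Top2a chose these cells, their level and that of genes that move with them are given as a description, without a test.

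The tumors grew from SO, a mouse ovarian cancer cell line, placed under the skin of C57BL/6 females aged 6 to 8 weeks. One group was wild type (WT). The other carried the tight skin allele (TSK), a duplication inside the fibrillin-1 gene Fbn1, on 1 chromosome, since embryos with both copies die. Tumors of each genotype were pooled, digested with enzymes and freed of red and dead cells with no sorting for a cell type, and 1 droplet 3′ library was made per genotype. With 1 pooled library per genotype, mice cannot be told apart and no difference between genotypes has a replicate check, so no p-value is given, and every interval below is a 95% interval for counting error only.

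The WT library held 2332 barcodes with 21225411 UMIs, and the TSK library 4436 barcodes with 48296765 UMIs. Barcodes present in both lists numbered 263, and none of them met the CD8 T cell criteria. The CD8 gate held 319 WT and 175 TSK cells. Members were deeper in WT, with a median of 8860 UMIs (range 4688 to 63313), than in TSK, with a median of 4278 (range 1561 to 56176). Non-cycling CD8 T cells, defined as CD8 T cells with 0 UMIs of both rule genes, numbered 218 in WT (median 6584.5 UMIs) and 113 in TSK (median 3029 UMIs).

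A cell that divides copies its DNA in S phase, prepares in G2 and separates its chromosomes in M phase. Mki67 encodes Ki-67, a protein that coats mitotic chromosomes, and Top2a encodes topoisomerase II alpha, which untangles DNA strands, and both are made mainly from S phase to mitosis. CD8 T cells, the killer cells of the adaptive immune system, multiply after their receptor meets antigen. Many genes of DNA replication are read under the control of E2F factors, and many genes of mitosis through a CHR element, often beside CCAAT boxes that bind NF-Y.

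To show the DNA in front of some of the genes described, 120 bases before the RefSeq start of transcription are given. The genes are both rule genes, Cdk1, the kinase that starts mitosis, and Mcm6, a subunit of the replicative helicase. Hmgb2, a chromatin protein of dividing cells, and Gzmb, which encodes the killer protease granzyme B, are also given. The sequences are from RefSeq on build GRCm38.p6, 5′ to 3′ on the strand of the gene, and all of them are promoter DNA just outside the transcript. Capitals mark matches on either strand to E2F (TTTCGCGC or TTTGGCGC), CHR (TTTGAA) and CCAAT, and neighbouring matches can overlap. They lie at chr7:135716380-135716499 (minus strand) for Mki67, chr11:99024190-99024309 (minus) for Top2a, chr10:69352913-69353032 (minus) for Cdk1, chr1:128359706-128359825 (minus) for Mcm6, chr8:57511723-57511842 (plus) for Hmgb2 and chr14:56262335-56262454 (minus) for Gzmb.
Mki67: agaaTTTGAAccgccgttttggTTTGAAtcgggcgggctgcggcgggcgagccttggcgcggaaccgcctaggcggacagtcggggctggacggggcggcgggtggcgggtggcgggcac
Top2a: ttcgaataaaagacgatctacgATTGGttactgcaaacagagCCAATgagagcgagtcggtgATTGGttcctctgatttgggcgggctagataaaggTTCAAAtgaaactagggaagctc
Cdk1: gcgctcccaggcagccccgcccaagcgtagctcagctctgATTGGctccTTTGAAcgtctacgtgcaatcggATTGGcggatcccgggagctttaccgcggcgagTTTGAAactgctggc
Mcm6: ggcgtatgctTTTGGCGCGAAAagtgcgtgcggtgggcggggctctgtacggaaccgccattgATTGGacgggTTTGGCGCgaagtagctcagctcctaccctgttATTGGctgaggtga
Hmgb2: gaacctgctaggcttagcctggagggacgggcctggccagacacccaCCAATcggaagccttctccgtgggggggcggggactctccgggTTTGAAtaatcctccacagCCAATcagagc
Gzmb: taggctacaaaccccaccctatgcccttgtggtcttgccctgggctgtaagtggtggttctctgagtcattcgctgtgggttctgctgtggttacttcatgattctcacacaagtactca

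Top2a held 1 CHR match, 23 bases before the start, and 3 CCAAT matches, 98, 78 and 58 bases before it. Mki67 held 2 CHR matches, at 116 and 98 bases. Mcm6 was the one of the 6 with E2F matches in this stretch, at 110, 106 and 47 bases, the first pair overlapping, and Gzmb held none of the letters searched. The genes shown were picked from a larger set. Ccnb2, Pcna, Pclaf, Rrm2, Mcm5, Birc5, Dut and Tubb5, not shown, held no E2F or CHR match in their 120 bases. Over the 250 bases before the start, CHR was found in 11 of 35 mitosis and G2/M genes with a RefSeq window (31.4%) against 18.3% of all 27025 genes, and CHR together with CCAAT in 10 of 35 (28.6%) against 7.34%. E2F letters were found in 4 of 24 replication and G1/S genes with a window (16.7%) against 0.759% of all genes. Of 23 cytotoxic genes with a window, 0 held E2F, 4 held CHR (17.4%) and 3 held CCAAT (13.0%, against 37.5% of all genes). A match is a run of letters and not a shown binding site.

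The markers that name the cells were checked first. Cd3e, a chain of the T cell receptor complex, was seen in 57 of the 63 members, Cd8a in 54, Top2a in 58 and Mki67 in 31. All 4 markers were found in 19 members, and 3 or more in 56. Ptprc, which encodes the leukocyte surface protein CD45, was found in 62 members. Foxp3, the factor that defines regulatory T cells, was at 0 UMIs in the members of both libraries. The CD3 and CD8 genes and both rule genes chose these cells, so their counts describe the members and are no independent check of the label. Of the members, 32 were chosen on Top2a alone and 5 on Mki67 alone.

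**Figure D1:**
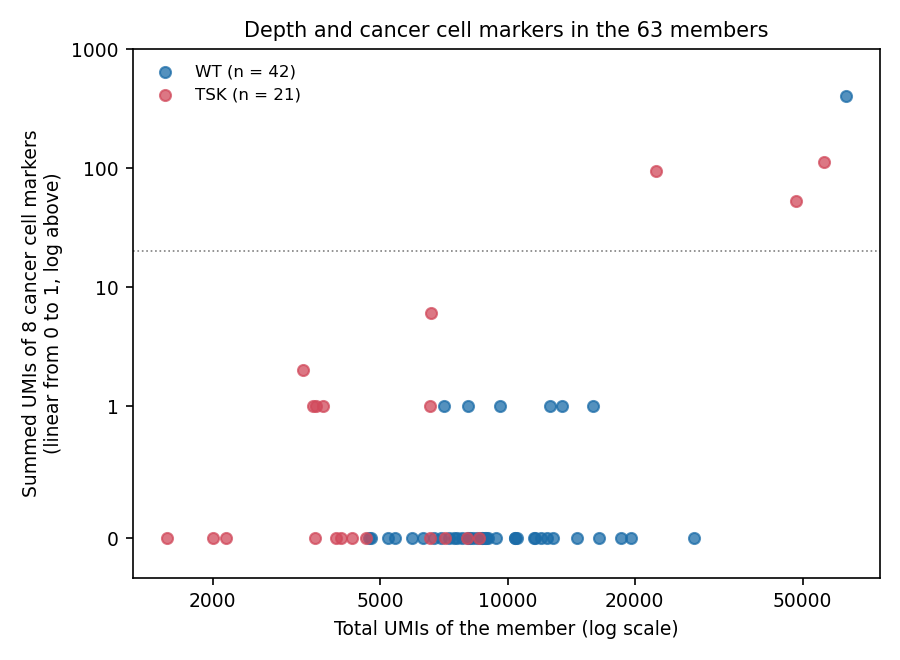
Summed UMIs of 8 cancer cell marker genes (vertical axis) against all UMIs of the cell (horizontal axis), 1 point per member, with WT and TSK in their own colours. The horizontal axis is on a log scale, and the vertical axis is linear at its low end and log above. The dotted line marks 20 marker UMIs, and 4 barcodes, 1 WT and 3 TSK, lie above it at 22535 UMIs or more.

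Before any level was compared, 4 members stood apart, since they held 20 or more UMIs of a list of 8 cancer cell markers (a limit chosen after the values were seen). The WT barcode had 63313 UMIs, of which 405 were of the cancer cell markers, with 185 of Krt18, a keratin of epithelial cells, and 96 of Lgals7, a galectin of epithelial cells. It also had 9 UMIs of Cd3e and 24 of Ptprc. The 3 TSK barcodes had 22535, 48363 and 56176 UMIs in all and 94, 53 and 112 UMIs of the cancer cell markers, and their Ptprc counts were 0, 2 and 1. They made up 60.4% of all member UMIs in TSK, against 13.2% for the 1 barcode in WT. In the comparison class, 1 TSK non-cycling barcode (15202 UMIs) met the same limit and was left out with them. Results over all members are therefore set beside values without these barcodes, and members are described by their Mki67 and Top2a counts without them. Whether they are a T cell and a cancer cell in 1 droplet or cancer cells with stray T cell RNA was not tested.

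The 63 members were not alike in how many Mki67 and Top2a UMIs they had. In WT, 23 members had 2 UMIs, 10 had 3, 2 had 4 and none had 5 to 8. In TSK, 8 members had 2 UMIs, 2 had 3, and 1 had 4. Leaving out the 4 barcodes with cancer cell markers, 6 WT members had 18, 26, 26, 27, 31 and 56 UMIs, and 7 TSK members had 5, 6, 6, 6, 7, 15 and 26. Members with 2 to 4 UMIs (35 WT and 11 TSK) are called low members and those with 5 or more (6 WT and 7 TSK) high members, a division made after the counts were seen. Of the high members, 4 of 6 in WT and 4 of 7 in TSK held 2 or more UMIs of the markers of other cell types (macrophage, neutrophil, B, cancer, fibroblast, endothelial and erythroid lists, with the macrophage genes Ctss and Apoe not counted), against 72 of 218 WT and 26 of 112 TSK non-cycling cells. With Ctss and Apoe counted these were 5 of 6 and 5 of 7, against 100 and 43 non-cycling cells. Where cells with markers of other types are left out, Ctss and Apoe are not counted. The WT high member at 27 UMIs had 35 UMIs of the endothelial gene Pecam1, 3 UMIs of the CD3 and Trac genes, 2 of the Cd8 genes and 0 of Cd3e.

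**Figure D2:**
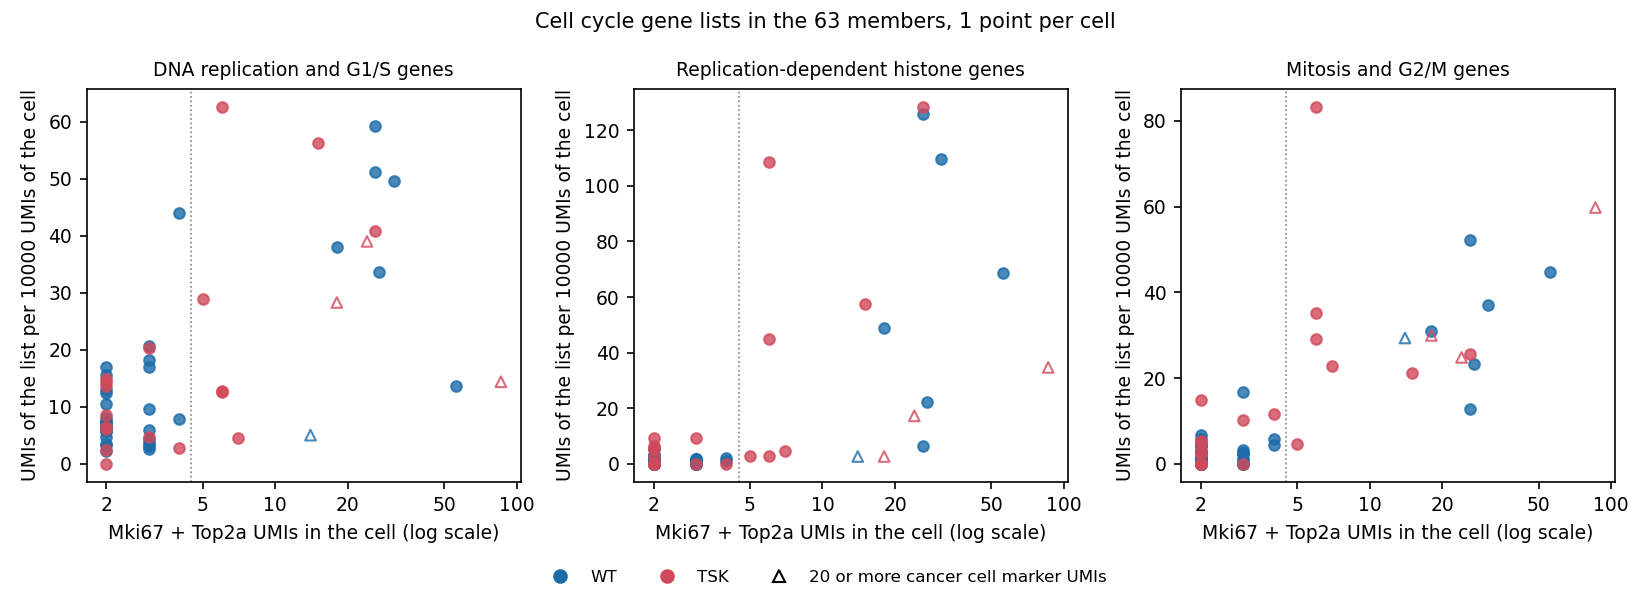
UMIs per 10000 UMIs of the cell for the replication and G1/S, the mitosis and G2/M and the histone gene lists (1 panel each) against the summed Mki67 and Top2a UMIs of each member. The dotted line parts low from high members and triangles are the 4 barcodes with cancer cell markers. In WT all 6 high members lie above every low member for histones.

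Just inside the threshold, the 23 WT and 8 TSK cells at exactly 2 UMIs had 10 and 5 UMIs of Mki67 and 36 and 11 of Top2a. Just outside it, the 59 WT and 41 TSK cells at exactly 1 UMI had 12 and 8 UMIs of Mki67 and 47 and 33 of Top2a. Median depth was 8717 UMIs inside against 6924 outside in WT, and 3583.5 against 3523 in TSK. The deeper WT cells thus lay just inside, whereas TSK depth was alike on both sides.

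Low members were near non-cycling cells in mitosis and histone genes. Of 46 low members, 17 had no UMI of the 40 mitosis and G2/M genes (the rule genes left out), 19 had no UMI of the 15 replication-dependent histone genes and 8 had neither. The summed level of the mitosis and G2/M list in WT was 226 counts per 1000000 UMIs (CPM) in low members and 256 in non-cycling cells, and in TSK 443 and 385. The log2 ratio of low members to non-cycling cells was -0.18 (-0.55 to 0.18) in WT and 0.20 (-0.62 to 0.93) in TSK for this list. For histones it was 0.39 (-0.19 to 0.94) and -0.18 (-1.13 to 0.64). Other division lists were higher in WT low members. Replication and G1/S genes were at 1044 CPM in low members against 632 in non-cycling cells, a log2 ratio of 0.72 (0.54 to 0.90), of which 1 cell held 23.7% of the UMIs (844 CPM without it). Chromatin and cytoskeleton genes had 0.45 (0.34 to 0.55), at 3051 CPM against 2239, or 2408 CPM without the 1 cell that held most. Nucleotide synthesis genes had 0.44 (0.20 to 0.68), at 558 CPM against 411, or 454 CPM without 1 cell. In TSK the ratios of these lists, 0.36 (-0.22 to 0.90), -0.0018 (-0.33 to 0.31) and 0.19 (-0.46 to 0.78), had intervals that span no difference. High members without markers of other cell types, 2 in WT and 3 in TSK, had log2 ratios to such non-cycling cells of 3.66 (3.24 to 4.06) and 3.17 (2.68 to 3.65) for mitosis and G2/M genes, 3.01 and 2.30 for replication and G1/S genes and 6.77 and 3.76 for histones, an alternative added after the data were seen.

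**Figure D3:**
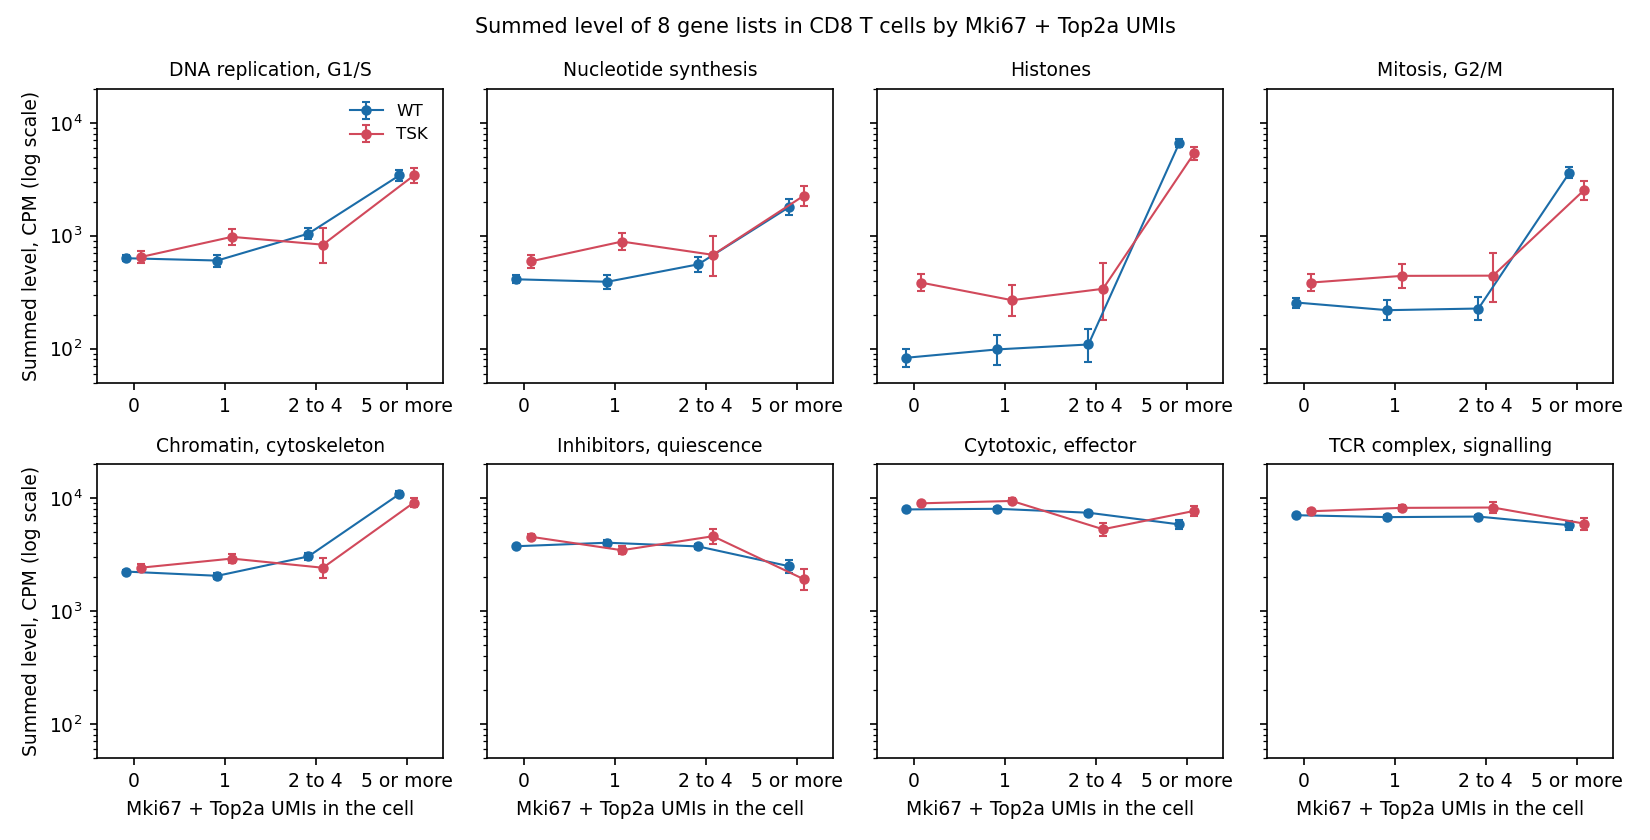
Summed level of gene lists (CPM, log scale, with 95% counting intervals) in CD8 T cells with 0, 1, 2 to 4 and 5 or more Mki67 and Top2a UMIs, without the barcodes with cancer cell markers. Histones reach 6685 CPM in WT and 5364 CPM in TSK at 5 or more UMIs, and 339 CPM or less in low members.

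Histone genes had the highest summed ratio of high members to non-cycling cells among the division lists, though not in every cell. The replication-dependent histones package new DNA in S phase, and most of their RNAs lack the poly(A) tail that 3′ libraries capture, so levels are of the captured part. Per 10000 UMIs of the cell, the 6 WT high members had 6.40, 22.4, 48.8, 68.8, 110 and 126 histone UMIs, and the 7 TSK high members 2.82, 3.05, 4.56, 44.8, 57.5, 108 and 128. The WT high members all exceeded the highest WT low member (5.54), and 4 of the 7 TSK high members exceeded the highest TSK low member (9.30). The list's log2 ratio to non-cycling cells was 6.33 (6.05 to 6.62) in WT and 3.80 (3.50 to 4.11) in TSK. Non-cycling cells themselves differed, with 82.9 CPM of histones in WT and 385 CPM in TSK. Hist1h2ap, an H2A gene, had 264 UMIs over the 6 WT and 89 over the 7 TSK high members, against 6 UMIs in 218 WT and 26 in 112 TSK non-cycling cells. Hist1h1b, a linker histone, had 76 and 35 UMIs in high members and 6 and 4 in non-cycling cells. Histone genes are near-identical copies of each other, so the share of each single gene is uncertain.

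Genes of DNA replication were also higher in high members of both libraries. The G1/S list reached 3429 CPM in WT and 3428 in TSK high members, with log2 ratios to non-cycling cells of 2.44 (2.25 to 2.63) and 2.40 (2.10 to 2.70). Per 10000 UMIs, WT high members ran from 13.8 to 59.3 and TSK high members from 4.56 to 62.7. In WT 3 of 6 exceeded the highest low member (44.1), and in TSK 4 of 7 did (20.4). Pcna, the sliding clamp of DNA polymerase, had 51 UMIs in WT and 16 in TSK high members, and log2 ratios of 1.80 and 1.93. Mcm6, whose promoter held the E2F letters, had 16 and 17 UMIs, with ratios of 1.64 and 2.15. Lig1, the ligase that joins new DNA fragments, had ratios of 3.33 and 3.67 from 20 and 11 UMIs. Of these, Pcna alone reached the 50 UMIs required in each library.

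Genes that make DNA building blocks were also at a higher level in high members. The nucleotide list stood at 1801 CPM in WT and 2270 in TSK high members, with log2 ratios of 2.13 (1.87 to 2.39) and 1.94 (1.58 to 2.28). Dut, which removes dUTP from the nucleotide pool, had 32 and 19 UMIs there against 37 and 29 in all non-cycling cells, with ratios of 3.92 and 2.41. Rrm1, the large subunit of ribonucleotide reductase, had 17 and 8 UMIs and ratios of 3.47 and 3.21.

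The mitosis and G2/M list stood at 3626 CPM in WT and 2538 CPM in TSK high members, with log2 ratios of 3.82 (3.61 to 4.04) and 2.72 (2.35 to 3.09). The WT high members had 12.8, 23.3, 31.0, 37.0, 44.9 and 52.2 UMIs per 10000, and the TSK high members 4.57, 21.2, 22.8, 25.7, 29.0, 35.2 and 83.3. In WT 5 of 6, and in TSK 6 of 7, exceeded the highest low member of their library. Kif11, a spindle motor, had 25 and 7 UMIs in high members against 18 and 4 in non-cycling cells. Nusap1, a spindle protein, had 17 and 12 against 10 and 3. Birc5, which encodes survivin of the chromosomal passenger complex, had 17 and 6 against 1 and 2, and Cdk1, with CHR and CCAAT matches above, had 15 and 4 against 6 and 5. Their single ratios are loosely set at such counts, as for Cdk1, with 2.70 (0.36 to 4.91) in TSK.

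Chromatin and cytoskeleton genes of dividing cells were the most abundant division genes, at 10900 CPM in WT and 9171 CPM in TSK high members against 2239 and 2425 CPM in non-cycling cells. Hmgb2 was found in all 13 high members, with 178 UMIs in WT and 91 in TSK, and log2 ratios of 2.31 (2.06 to 2.55) and 2.10 (1.72 to 2.47). H2afz, a histone variant made outside S phase too, had ratios of 2.47 and 1.72. Tubb5, a beta tubulin, had 3.47 and 1.83, and Stmn1, which regulates microtubule growth, had 4.76 and 4.02 from 51 and 20 UMIs. These 4 genes were higher in high members of both libraries.

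Genes that hold cells out of division had a lower summed level, while 4 of 11 compared passed 2-fold downward in both libraries, against 4.14% of all compared genes. The list of inhibitors and quiescence genes was at 2494 CPM in WT and 1914 CPM in TSK high members, with log2 ratios of -0.59 (-0.79 to -0.40) and -1.25 (-1.58 to -0.94). In low members it was at 3742 and 4610 CPM, with ratios of -0.01 and 0.02. Btg1, an antiproliferative gene of resting lymphocytes, had ratios of -1.38 in WT and -1.36 in TSK. Cdkn1b, which encodes the inhibitor p27, had 2 UMIs in high members of each library against 143 and 49 in non-cycling cells, with ratios of -2.03 (-5.09 to -0.15) and -1.60 (-4.68 to 0.33). The TSK interval for Cdkn1b spans no difference.

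Summed ratios of the T cell lists lay nearer to 0 than those of the division lists. The CD3 and Trac genes of the rule were lower in high members than in non-cycling cells, with log2 ratios of -0.26 (-0.51 to -0.02) in WT and -0.82 (-1.21 to -0.45) in TSK. The Cd8 genes had -0.13 (-0.50 to 0.21) and -0.58 (-1.13 to -0.07). The list of T cell receptor and proximal signalling genes had log2 ratios of high members to non-cycling cells of -0.29 in WT and -0.36 in TSK, and 0 of its 16 compared genes passed 2-fold in both libraries in either direction, where 2.7% of all compared genes did upward and 4.14% downward. The cytotoxic list had -0.44 and -0.22, but 1 WT cell held 61.6% of its WT UMIs, and without that cell the WT ratio was -1.27 (-1.48 to -1.06). In high members without markers of other cell types the cytotoxic ratios were -1.56 and -1.03, and the T cell receptor ratios 0.24 (0.01 to 0.45) and -0.31 (-0.63 to -0.02), so the WT sign of the latter turned. Gzmb was higher, with 169 UMIs in 4 of 6 WT and 71 UMIs in 6 of 7 TSK high members and ratios of 1.64 and 1.23, although 1 WT cell held 121 of the UMIs and 1 TSK cell 41. Cancer cells, which should lack Gzmb, were taken as kept cells with 3 or more UMIs of Lgals7 and Cdkn2a. They had no UMI of Ptprc, the CD3 genes or Trac, so barcodes with such RNA had been left out beforehand. Gzmb was found in 0 of 90 WT cancer cells (exact interval 0 to 4.02, where 3 counts of the total would be 3.33%), a limit on cells with a UMI. In TSK it was found in 0.463% of 1079 cancer cells. Median depths were 33102.5 UMIs in WT and 28929 in TSK. Shares in these cancer cells are thus no limit on stray RNA in the members. Ccl5, a chemokine stored by memory CD8 T cells, was lower, with 19 UMIs in 3 of 6 and 66 UMIs in 5 of 7 cells and ratios of -3.92 and -1.54. Cancer cells had a Ccl5 UMI in 6.67% of WT and 7.04% of TSK cells. Nkg7, a granule protein, had -0.43 and -0.21. The inhibitory receptor and exhaustion list had -0.17 (-0.34 to -0.01) and -0.24 (-0.49 to 0.00). Pdcd1, which encodes PD-1, had 1.34 in WT from 21 UMIs and -1.25 (-3.16 to 0.17) in TSK from 4 UMIs.

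Of the activation receptors, Il2ra and Tnfrsf9 had most of their WT UMIs in 1 cell. Il2ra, the alpha chain of the interleukin-2 receptor, had 46 UMIs in WT high members, 34 of them in 1 cell, and 3 UMIs in TSK, all in 1 cell. Tnfrsf9, the costimulatory receptor 4-1BB, had 37 UMIs in WT, 28 of them in 1 cell, and 13 in TSK. The costimulatory receptor list as a whole had 118 UMIs in WT, 58 of them in 1 cell, and 50 in TSK. Naive, memory and stem-like genes had log2 ratios of -0.85 (-1.12 to -0.59) and -0.06 (-0.37 to 0.25), which were -0.76 (-1.33 to -0.26) and -1.05 (-1.87 to -0.34) in high members without markers of other cell types. Tcf7, the factor of stem-like T cells, had 1 UMI in WT and 0 in TSK high members. Interferon-stimulated genes had -0.73 (-0.95 to -0.52) and -0.04 (-0.29 to 0.21).

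Energy metabolism lists had summed levels above those of non-cycling cells in high members, though few of their genes passed 2-fold. The glycolysis list was at 5000 CPM in WT and 4697 CPM in TSK high members, with log2 ratios of 1.30 (1.15 to 1.45) and 0.64 (0.42 to 0.86). Tpi1 and Pgk1, glycolytic enzymes, had ratios of 2.37 and 1.91 in WT and 1.48 and 1.34 in TSK, and were the 2 of 9 compared glycolysis genes past 2-fold in both, where 2.7% of all compared genes were. Oxidative phosphorylation genes had 0.97 (0.84 to 1.10) and 0.57 (0.38 to 0.74), and 1 of 17 compared, Atp5k, passed 2-fold in both.

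Across all genes, those at least 2-fold higher in high members than in non-cycling cells of both libraries numbered 32 of 1185 compared (2.7%), and those at least 2-fold lower numbered 49 (4.14%). A gene was compared when it had 50 or more UMIs over both classes in each library. It could thus reach the minimum through the class in which it is high. Hist1h2ap did so, with 264 and 89 UMIs in high members against 6 and 26 in non-cycling cells. The counts of compared genes past 2-fold are therefore a description and not a test. The genes past 2-fold upward included 2 of 2 compared histone genes (Hist1h2ap and Hist1h4d), 5 of 6 chromatin genes (Hmgb1, Hmgb2, H2afz, Tubb5 and Smc4), 1 of 1 replication gene (Pcna) and 1 of 1 nucleotide gene (Nme1). Those past it downward included 4 of 11 inhibitor genes (Klf4, Foxp1, Cdkn1b and Btg1) and 0 of 10 inhibitory receptor genes. Klf4 had 2 UMIs in high members of each library, and its ratio turned to 0.35 in WT and 0.19 in TSK without cells with markers of other types. None of the 40 mitosis genes reached the minimum in both libraries, so that list was left uncounted. The median log2 ratio of the compared genes was 2.11 in WT and 1.92 in TSK for the chromatin list, against -0.02 and -0.09 over all compared genes. It was -0.39 and -1.34 for the inhibitor list, -0.48 and -0.25 for the T cell receptor list and 0.91 and 0.58 for oxidative phosphorylation. The cytotoxic list had medians of -0.82 in WT and 0.23 in TSK, the latter opposite in sign to its summed ratio of -0.22.

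With all 63 members, 63 of 1910 compared genes were at least 2-fold higher than in non-cycling cells of both libraries (3.3%) and 10 were lower (0.524%). Without the barcodes with cancer cell markers, 14 of 1325 were higher (1.06%) and 9 lower (0.679%), and 12 of the 14 had been among the 63. Genes were ranked by the smaller of their ratios in both libraries. The rule genes, at 0 UMIs in non-cycling cells by definition, stood first and were left out of this ranking. Of the 10 genes that followed over all members, Hist1h1b (5.34 in WT, 4.66 in TSK), Pclaf (6.64 and 4.35), which binds PCNA, Hist1h2ap (7.14 and 3.94) and Stmn1 (2.90 and 2.95) belong to DNA replication and division. The other six, Igfbp4, Lgals7, Krt18, Tcf4, Hmga2 and Ank, had between 86.7% and 100% of their member UMIs in the 4 barcodes. In TSK, Hist1h1b, Pclaf, Hist1h2ap and Stmn1 had 37.5%, 39.7%, 58.4% and 48.8% of their member UMIs in the same barcodes. In WT these were 0%, 4.76%, 0.373% and 5.13%. Of these genes, Hist1h2ap alone was still compared without the barcodes. The 14 without those barcodes held Top2a of the rule itself, Hist1h2ap, Hist1h4d, Mcm6, Dut, Hmgb2, H2afz, Tubb5, Ezh2, Nucks1, Anp32b, Dbi, Myo10 and Gm47283.

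The genes furthest down over all members were mostly collagens and other matrix genes. Col1a2 had log2 ratios of -4.84 in WT and -5.75 in TSK, Col1a1 -4.76 and -4.75, Bgn -5.03 and -3.54, and Col3a1 -4.84 and -2.69. Leaving out the barcodes with cancer cell markers, these were -5.64 and -5.06 for Col1a2, -4.55 and -3.79 for Col1a1, -4.82 and -2.85 for Bgn and -5.64 and -4.08 for Col3a1, from 1 to 4 member UMIs each. Fibroblast markers in non-cycling cells came almost wholly from 1 barcode in each library, which held 983 of 1077 UMIs in WT and 1106 of 1138 in TSK. Klf4, a factor of quiescent T cells, had -1.28 and -3.24, with most of its TSK non-cycling UMIs in 1 cell. Without the barcodes with cancer cell markers Klf4 had -1.52 and -2.15. In TSK, however, Klf4 turned to 0.45 with upper limits of 10000 UMIs and genes per cell and to 1.20 without cells with markers of other types. Cish, an inhibitor of cytokine signalling, had -1.05 and -1.61, and -0.85 and -0.30 without the barcodes with cancer cell markers.

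**Figure D4:**
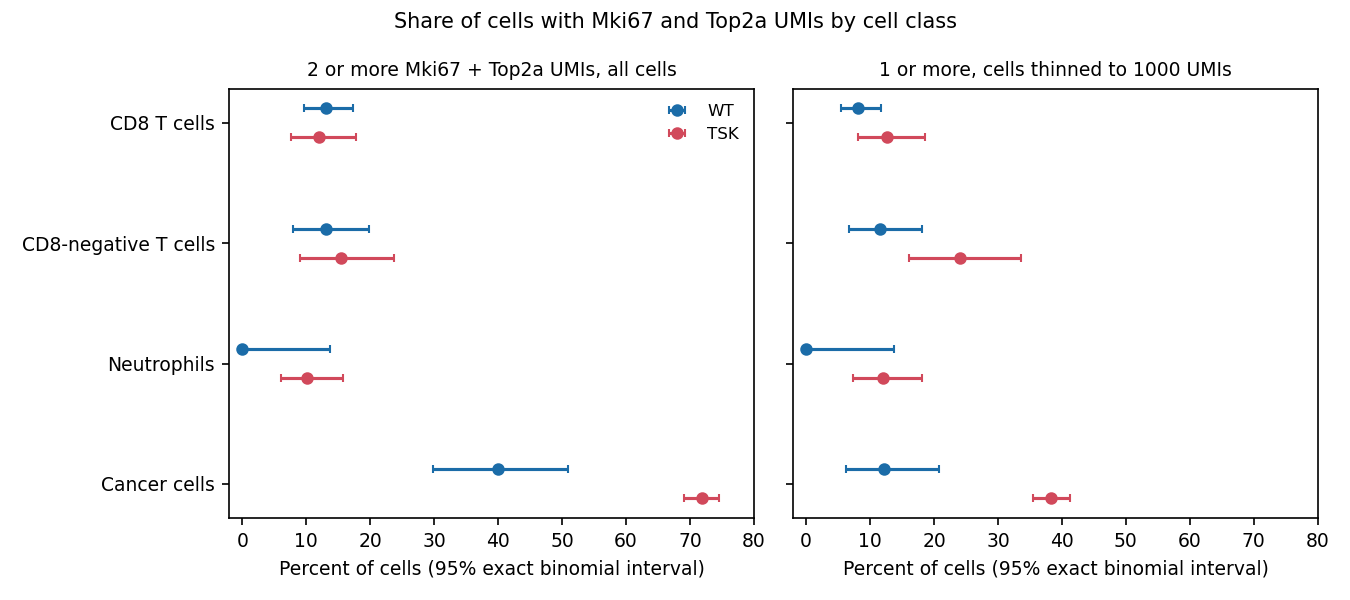
Share of cells with 2 or more Mki67 and Top2a UMIs (left, as counted) and with 1 or more after thinning every cell to 1000 UMIs (right), in CD8 T cells, other T cells, cancer cells and neutrophils of WT and TSK, with exact 95% binomial intervals. TSK neutrophils reach 10.2% as counted, near the 12% of TSK CD8 T cells.

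The share of CD8 T cells that were members was 13.2% in WT (42 of 319, exact binomial interval 9.66 to 17.4) and 12% in TSK (21 of 175, 7.58 to 17.8). The log2 ratio of TSK to WT was -0.13 (-0.96 to 0.65), so a difference was not detectable at this depth. Of all kept cells, members were 2.91% in WT (2.11 to 3.92) and 0.709% in TSK (0.440 to 1.08), a log2 ratio of -2.04 (-2.87 to -1.25). CD8 T cells as a whole were 22.1% of kept WT cells and 5.91% of kept TSK cells. Without the barcodes with cancer cell markers the shares of CD8 T cells were 12.9% and 10.5%, and those of all kept cells 2.84% and 0.608%. High members were 6 of 318 WT (1.89%) and 7 of 171 TSK CD8 T cells (4.09%), a log2 ratio of 1.12 (-0.68 to 2.97). Of all kept cells, high members were 0.416% in WT and 0.236% in TSK. That log2 ratio, -0.82 (-2.61 to 1.03), had an interval that spans no difference.

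A droplet also takes up free RNA, so the same count was made in cells that should lack it. Neutrophils, which do not divide once mature, were taken as cells with 10 or more UMIs of S100a8 and S100a9 and no T cell UMI, a gate chosen after the values were seen. In TSK 17 of 167 neutrophils (10.2%, 6.04 to 15.8) had 2 or more UMIs at a median depth of 2208 UMIs, and in WT 0 of 25 did (exact interval 0 to 13.7), where 3 counts of the total would be 12%. The TSK share in CD8 T cells, 12% at a median depth of 3255 UMIs, lay within the TSK neutrophil interval. The WT share of 13.2% lay within the wide WT one. Neither share is read as expression, and the cause was not tested. At 5 or more UMIs were 6 of the 167 TSK neutrophils (3.59%, 1.33 to 7.66), with 7 to 107 UMIs of the rule genes, and 5 of these 6 held 20 or more UMIs of the cancer cell markers. Leaving such barcodes out of both classes, 10 of 159 TSK neutrophils (6.29%, 3.06 to 11.3) had 2 or more UMIs and 1 of 159 (0.629%, 0.0159 to 3.45) had 5 or more, against 10.5% and 4.09% (1.66 to 8.25) of TSK CD8 T cells. These intervals overlap at both thresholds. Thinned to 1000 UMIs, cells with at least 1 UMI of the rule genes were 8.15% of WT and 12.6% of TSK CD8 T cells, and 0% of WT and 12% of TSK neutrophils. In cancer cells, 40.0% of WT and 71.9% of TSK cells had 2 or more UMIs as counted, at median depths of 33102.5 and 28929 UMIs. Thinned, 12.2% and 38.3% of them had 1 or more. In T cells without Cd8 UMIs, the share with 2 or more as counted was 13.0% in WT and 15.4% in TSK. Thinned, 11.6% and 24% of those had 1 or more.

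Levels in TSK and WT members were then set side by side. Over all members, 397 of 2271 compared genes (50 or more UMIs over both libraries) were at least 2-fold higher in TSK (17.5%) and 308 were at least 2-fold lower (13.6%). Without the barcodes with cancer cell markers these were 63 of 1515 (4.16%) and 86 (5.68%), and for high members alone 8 of 315 (2.54%) and 16 (5.08%). None of the 10 genes with the highest TSK ratio over all members, Ccnd1, Map1b, Ruvbl1, Srm, Fmnl2, Pdcd11, Lyar, Slc22a23, Myc and Mid1, was still compared without those barcodes. Of the 10 genes with the lowest TSK ratio, 8 were still compared without them, all with ratios of -1.73 or below (Hspa1a and Mthfs, at 0 TSK UMIs, against a bound of 3 counts). They had been picked for low ratios and reached the minimum mainly through WT members, so this was set beforehand and is no check. Among these, A930015D03Rik had 165 UMIs in WT and 7 in TSK, a ratio of -2.23 (-3.57 to -1.16), against -1.26 in non-cycling cells. Arhgef3 had 49 and 2 UMIs, a ratio of -2.29 (-5.37 to -0.36), against 0.19 in non-cycling cells. In high members its ratio was -0.05 (-3.52 to 2.75), from 4 and 2 UMIs. Hspa1a, a heat shock gene, had 50 WT UMIs, 37 of them in 1 cell. The other two were Il18rap, with 46 and 1 UMIs, and Cxcl9, an interferon-induced chemokine with -6.22 over all members and 170 of its 171 WT UMIs in the 1 WT barcode with cancer cell markers.

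**Figure D5:**
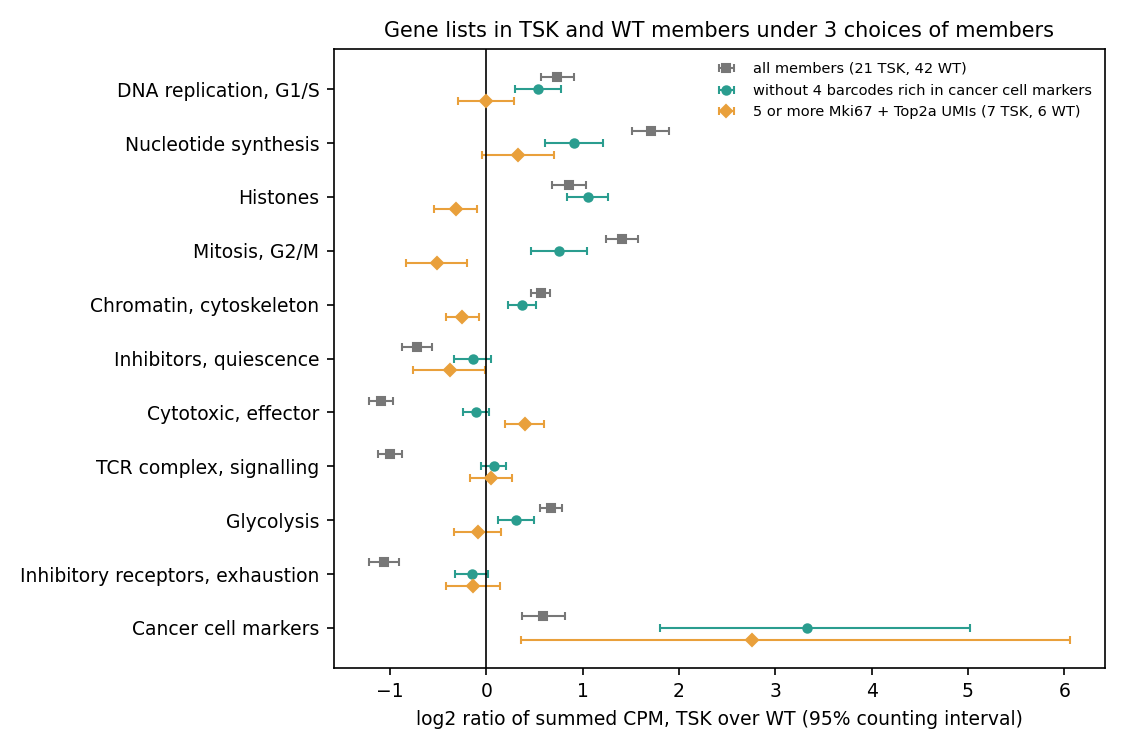
Log2 ratio of TSK to WT summed levels of gene lists, with 95% counting intervals, for all members, for members without the 4 barcodes with cancer cell markers and for high members alone. The T cell receptor list goes from -1.001 to 0.08 and 0.05, and the G2/M list from 1.41 to 0.76 and -0.51.

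Division lists other than nucleotide synthesis did not keep 1 direction between genotypes. Over all members the log2 ratio of TSK to WT was 1.41 (1.25 to 1.57) for mitosis and G2/M genes, 0.76 (0.46 to 1.05) without the barcodes with cancer cell markers and -0.51 (-0.84 to -0.20) in high members. Replication and G1/S genes had 0.74, 0.54 and 0.00 in the same order, and histones 0.86, 1.05 and -0.32 (-0.54 to -0.10). Chromatin and cytoskeleton genes had 0.56, 0.37 and -0.25 (-0.42 to -0.08). Nucleotide synthesis genes had 1.71, 0.91 (0.61 to 1.21) and 0.33 (-0.04 to 0.70). Their ratio was 0.48 (-0.20 to 1.16) in high members without markers of other cell types. In high members without markers of other cell types, mitosis and G2/M genes turned to 0.25 (-0.29 to 0.79), replication and G1/S genes had -0.55 (-1.06 to -0.05) and histones -0.71 (-1.11 to -0.33). Non-cycling cells had 0.56 for mitosis genes and 2.27 (1.92 to 2.63) for histones. The mix of high and low members differed between the libraries, with 7 of 18 TSK and 6 of 41 WT members high once those barcodes were left out. The rule genes themselves had 0.87 over all members, 0.86 without those barcodes and -0.43 (-0.84 to -0.02) in high members. Their UMI counts chose the members at unlike depth, with medians of 13769 UMIs in WT and 6586 in TSK high members. Ratios of genes that move with them are thus a description and are not read as a genotype difference.

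T cell lists took other values once the same barcodes were left out. T cell receptor genes had -1.001 (-1.13 to -0.88) over all members, 0.08 (-0.05 to 0.21) without the barcodes and 0.05 (-0.17 to 0.26) in high members, and turned to -0.46 (-0.83 to -0.09) in high members without markers of other cell types. Cytotoxic genes had -1.09, -0.11 (-0.24 to 0.02) and 0.40 (0.20 to 0.60), which was 1.22 (0.97 to 1.48) without the WT cell with the most cytotoxic UMIs. In low members the cytotoxic ratio was -0.49 (-0.70 to -0.28), opposite in sign to that of high members. Inhibitory receptor genes had -1.06, -0.15 and -0.13. Naive, memory and stem-like genes turned from -0.59 (-0.79 to -0.38) to 0.49 (0.27 to 0.70) and 0.62 (0.22 to 1.01), against -0.17 (-0.28 to -0.06) in non-cycling cells without the barcodes, and had -0.51 (-1.48 to 0.40) in high members without markers of other cell types. Among genes still compared without those barcodes, Ikzf2, which encodes the factor Helios, had 232 UMIs in WT and 9 in TSK members, a ratio of -2.36 (-3.51 to -1.41), against -1.22 (-1.69 to -0.77) in non-cycling cells. Of the 232, 204 UMIs came from 5 of the 41 WT members, with 59, 55, 42, 24 and 24 each, and 28 members had none. Those 5 members had 17, 6, 3, 6 and 4 UMIs of NK cell markers, whose part in this ratio was not tested. Eif2ak3, which encodes the stress kinase PERK, had 51 and 1 UMIs, a ratio of -3.35 (-8.68 to -0.80), against 0.01 (-0.48 to 0.48) in non-cycling cells, and -2.05 (-7.52 to 0.85) in high members.

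Some genes were higher in TSK members without the same barcodes. Pclaf had 60 UMIs in WT and 41 in TSK, a ratio of 1.78 (1.17 to 2.37), against 3.65 (1.16 to 6.99) in non-cycling cells from 2 and 6 UMIs, and 0.58 (-0.05 to 1.19) in high members. Ranbp1, a nuclear transport factor, had 37 and 25, a ratio of 1.76 (0.97 to 2.53), against 0.36 (-0.36 to 1.04) in non-cycling cells, and 1.24 (0.27 to 2.22) in high members. Mt1, a metallothionein, had 33 and 26 UMIs, with 21 of the TSK UMIs in 1 cell, and a ratio of 1.98 (1.18 to 2.77), against 2.84 in non-cycling cells.

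Markers of other cell types were counted in the members, and their part in the results was not tested unless a value with and without the barcodes is given above. The 8 cancer cell markers summed to 854 CPM (411 UMIs, Krt18 first) in WT and 1288 CPM (271 UMIs, Lgals7 first) in TSK, but to 6 and 12 UMIs without the 4 barcodes. The 9 dendritic cell markers had 97 UMIs in WT, 74 of them in 1 low member, and 10 in TSK, with Cd74 first in WT. Of the 5 CD4 and regulatory T cell markers, Ikzf2 held 235 of 255 UMIs in WT, Foxp3 was at 0, and TSK had 11 UMIs. The 12 macrophage markers had 43 UMIs in WT and 20 in TSK, with Ctss first in WT. The 6 neutrophil markers were all at 0 in WT and had 1 UMI in TSK, and the 6 erythroid markers were at 0 in both libraries. NK cell markers had 58 and 30 UMIs, fibroblast markers 38 and 55, gamma-delta T cell markers 19 and 6 and B cell markers 9 and 1. Of the endothelial and mural markers, Pecam1 alone was found, with 52 UMIs in WT, 35 of them in 1 high member, and 7 in TSK.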

How the data were processed

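Single cells of pooled subcutaneous tumors were profiled with a droplet 3′ protocol, with 1 library of WT and 1 of TSK mice. The authors deposited a matrix of raw UMI counts per gene and barcode for each library, made with Cell Ranger (version 7.1.0 in the file headers, 7.1.1 in the submitters' processing notes) on mouse build mm10. Cells, CD8 T cells and members were taken by the criteria given in the results, and no doublet caller was run. Barcodes with markers of another cell type were left out in alternatives instead.

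Counts were summed per class and library, divided by the UMIs of all genes and compared as ratios, with exact 95% intervals (Clopper-Pearson for shares, Poisson for levels, conditional binomial for ratios). They cover counting error only. A gene was compared at 50 or more UMIs and was past the fold at 2-fold. A sum of 0 was set to 3 counts for a bound. No test between genotypes was possible with 1 library each, and none was made between members and non-cycling cells, which the rule itself parts. The ratios were tried before use on simulated Poisson sums without spread between cells. That check does not cover genes whose UMIs lie in few cells.

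Named genes were the most abundant members of role lists, the 10 highest and 10 lowest ratios of members to non-cycling cells (by the smaller change of both libraries, the rule genes left out) and of TSK to WT members. Other genes named in the text were chosen after their values were seen. The members, lists and comparisons were chosen with earlier results of these data known. Promoter windows came from RefSeq on GRCm38.p6. Tables were handled with pandas 2.3.3 and numpy 2.4.6 in Python 3.11.15, intervals came from scipy 1.17.1 and plots from matplotlib 3.10.9. Alternatives were upper limits of 10000 UMIs and genes, a threshold of 3 UMIs, at most 20% mitochondrial UMIs, shared barcodes kept, non-cycling cells with at most 1 UMI, cells with 2 or more UMIs of another type's markers (without Ctss and Apoe) left out, thinning to 1000 UMIs per cell, equal weight for each cell, scaling by the median ratio, and minimums of 20 and 1 UMIs. Leaving out the barcodes with cancer cell markers and the threshold of 5 UMIs, alone or without cells with markers of other types, leaving out the WT cell with the most cytotoxic UMIs, and neutrophil shares without barcodes with cancer cell markers were added after the data were seen.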

Additional observations from a re-analysis of the deposited data

Results flagged for a closer look

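The effect of membership on Tnfrsf9, the costimulatory receptor 4-1BB, went in opposite directions in the 2 libraries. Its log2 ratio of members to non-cycling CD8 T cells was 1.44 in WT and -1.05 in TSK, and the difference was not tested, since each genotype had 1 library. Without the barcodes with cancer cell markers the ratios were 1.49 and 0.17, and in members with 5 or more Mki67 and Top2a UMIs they were 3.04 and 0.67. In those members 28 of the 37 WT UMIs of Tnfrsf9 came from 1 cell.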

How the results depend on the processing

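No paired analysis was possible because each genotype had 1 library, and for the same reason no library could be left out. The log2 ratio of TSK to WT in the share of CD8 T cells that were members was -0.13, and of all kept cells -2.04. The first turned to 0.21 with upper limits, 0.32 at 3 UMIs, 0.63 thinned and 1.12 at 5 or more UMIs without the barcodes with cancer cell markers, and was -0.80 without cells with other markers, so it did not keep 1 direction. The second was -1.36, -1.59, -1.27, -0.82 and -2.62 in the same order. At 5 or more UMIs without those barcodes and without cells with other markers (3 TSK and 2 WT members) they were 1.37 and -0.45. Counts of genes past 2-fold are given as higher and lower in TSK over WT members, then higher and lower in members over non-cycling cells, and were 397, 308, 63 and 10. With upper limits of 10000 UMIs and genes they were 63, 52, 2 and 3, without cells with other markers 36, 90, 2 and 2, and thinned to 1000 UMIs 8, 3, 1 and 0. A minimum of 20 UMIs gave 1076, 655, 228 and 29, and a minimum of 1 UMI gave 5432, 1202, 1713 and 116, as more genes were compared. Without the barcodes with cancer cell markers they were 63, 86, 14 and 9, and at 5 or more UMIs, also without them, 8, 16, 32 and 49. Leaving out cells with other markers as well gave 27, 1, 19 and 41. A threshold of 3 UMIs moved the last pair to 118 and 40. Equal weight for each cell gave 117 lower in TSK, and 29 and 5 for the last pair. The median log2 ratio over all compared genes was 0.072 for TSK over WT members, and scaling by it gave 352 higher and 353 lower. For members over non-cycling cells it was 0.12 in WT and 0.053 in TSK, and scaling gave 51 and 12. Keeping shared barcodes and 20% mitochondrial UMIs left both shares within their intervals and the 4 counts within 1.5 times. The median scaling, which has no bearing on the shares, left the 4 counts within 1.5 times. Non-cycling cells with at most 1 UMI gave 83 and 14 for the last pair, the 2 counts they enter.

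Among the named genes and 11 gene lists, directions turned in 24 pairs of a value and an alternative, where the value had been 2-fold or more. Some values, such as the T cell receptor list of TSK over WT, turned under several alternatives. Smaller values turned too, such as the histone list of TSK over WT from 0.86 to -0.32 and the naive list from -0.59 to 0.49. With upper limits, members over non-cycling cells came to -0.66 for Tcf4 in TSK, -0.10 for Ank in WT, 0.62 for Col3a1 in TSK and 0.45 for Klf4 in TSK, and the T cell receptor list of TSK over WT to 0.010. Without cells with other markers, Ank in WT came to -0.18, Klf4 in TSK to 1.20 and the T cell receptor list to 0.19. Thinning turned Cish in WT to 0.38, and equal weight Bgn in TSK to 0.10. Without the barcodes with cancer cell markers, Igfbp4 in WT came to -0.46, Tcf4 to -0.25 in WT and -1.52 in TSK, Ank in WT to -0.25 and the T cell receptor list to 0.080. At 5 or more UMIs without them, Ank in TSK came to -1.37, Mid1 of TSK over WT to -1.05, and the lists of TSK over WT to -0.51 for mitosis and G2/M, 0.047 for the T cell receptor and 0.40 for cytotoxic genes. Leaving out cells with other markers as well gave 2.41 for Col1a1 in WT, 0.35 and 0.19 for Klf4 in WT and TSK and 0.68 for the cytotoxic list. The causes were not tested.

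The 13 high members held 86607 UMIs in WT and 44925 in TSK, so genes with few UMIs there have wide intervals. Free RNA, doublets and the number of dividing cells cannot be told apart for the members. At 5 or more UMIs the TSK share had an interval that overlaps that of TSK neutrophils. In WT the interval of 0 of 25 neutrophils reaches 13.7%. Its overlap with the WT share was thus fixed by the few neutrophils and decides nothing.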
